A study of Mus musculus with 18 samples.

Results

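Brains of female mice labelled ERbetaKO, the knockout of estrogen receptor beta (gene Esr2), were set against brains of wild type females across all genes. The comparison rested on 3 ERbetaKO-labelled and 3 wild type arrays, 6 of the 18 arrays in the series. Every sample was a whole brain of an 8-week-old C57BL/6 mouse, frozen before RNA extraction, and no treatment is given. The groups were chosen by title and sex label, with no measured value involved. A further 3 groups of 3 arrays were used beside them, namely ERbetaKO-labelled males, wild type males and females labelled ERalphaKO, the knockout of estrogen receptor alpha (gene Esr1). The disrupted allele and the way it was made are not given in the sources used here. Nothing in the labels says that the samples of a group came from separate animals, so each p-value reflects only how far samples of a group scatter, which may be technical. Of 18193 genes with a probe set, the 13072 with a sufficient signal were tested with limma. In the main limma model the scatter was estimated over all 18 arrays. A gene is said to have risen or fallen where its p-value, adjusted over all these genes by the Benjamini-Hochberg method, was under 0.05. Signals are the authors' scaled intensities, and log2 differences are ERbetaKO minus wild type after 63.63 was added to each signal. Signals compare samples for one probe set and do not compare genes.

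Estrogen receptor beta is a nuclear receptor that binds estradiol and regulates transcription directly at estrogen response elements or through other transcription factors. In rodent brain it is found in scattered populations, among them neurons of the paraventricular hypothalamus, the amygdala and the dorsal raphe, while estrogen receptor alpha dominates in the hypothalamic nuclei that govern reproduction. The genes that led the rises below belong to the immediate early response, which neurons and glia switch on within minutes of synaptic activity, hormones or stress without new protein synthesis. The falls included 1 of 17 tested genes of astrocytes (Gfap) and 1 of 14 tested genes of microglia (Cx3cr1). Astrocytes and microglia are the glial cells that buffer transmitters and survey the tissue. In whole brain, fewer cells of a type and less RNA per cell cannot be told apart.

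The targeted gene was examined first. Esr2 was measured by probe set 1426103_a_at, which gave 242, 243 and 160 in ERbetaKO-labelled females and 28.2, 28.7 and 22.5 in wild type females. All 3 ERbetaKO-labelled values thus lay above all 3 wild type values, opposite to what the label would give for a lost transcript. The log2 difference was 1.62 ± 0.23 (SE), with an unadjusted limma p of 2.60e-06 and a two-sided exact permutation p of 0.1, the smallest that 3 arrays against 3 can give. Since the wild type signal was under the added 63.63, the size depends on that choice, and it ranged from 0.88 to 2.96 over the alternatives. ERbetaKO-labelled males likewise averaged 327 ± 111, against 31.0 ± 17.2 in wild type males (SD, n = 3 each). Where this probe set lies relative to the disrupted stretch is not known here, so it does not check a deletion, and every direction below is that of libraries labelled ERbetaKO. For Esr1, probe set 1421244_at averaged 198 ± 23.6 in ERbetaKO-labelled females and 147 ± 47.8 in wild type females, and 1435663_at and 1460591_at differed by -0.02 and -0.09 on the log2 scale. The exact permutation p of these 3 probe sets was 0.2, 0.8 and 0.8. That test cannot give less than 0.1 here, so it cannot show that the groups were alike. For 1421244_at the difference was 0.34 with an unadjusted limma p of 0.0871, and 0.47 with p of 0.0314 when wild type female 3 was left out. Xist, the RNA that silences an X chromosome in females, was at 4678 to 5074 in ERbetaKO-labelled females and at 4234 to 5036 in wild type females, as the sex labels require. Kdm5d, a male marker, was at 70.8, 203 and 129 in ERbetaKO-labelled females and at 74.6 to 91.4 in wild type females. It was at 385 to 442 in ERbetaKO-labelled males. Eif2s3y, another male marker, was at 27.5 at most in ERbetaKO-labelled females and at 350 to 394 in ERbetaKO-labelled males.

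The brains did not all hold the same regions. Pcp2, a Purkinje cell gene, was at 9849, 299 and 256 in ERbetaKO-labelled females and at 6152, 5560 and 117 in wild type females. Gabra6, a cerebellar granule cell gene, was at 6641, 159 and 128 in ERbetaKO-labelled females and at 4346, 4179 and 94.4 in wild type females. Cerebellar transcripts were therefore abundant on 1 ERbetaKO-labelled array and 2 wild type arrays and low on the rest. Growth hormone (Gh) was at 18078, 169 and 134 in ERbetaKO-labelled females and at 19903, 68.6 and 67.0 in wild type females, so pituitary transcripts were abundant on array 1 of each group. Of the markers of these regions, 0 of 10 Purkinje, 0 of 12 granule cell and 0 of 6 pituitary genes tested passed the test, with medians of -0.43, -0.46 and 0.23 on the log2 scale. The Purkinje and granule cell medians turned to 0.32 and 0.44 in the fit that adds the Actb ratio, and to 0.55 and 0.49 with only the arrays of Pcp2 over 500. The summed granule cell signal ranged from 9867 to 45130 in ERbetaKO-labelled females and from 10102 to 33291 in wild type females. Measured as the ratio of 3' to 5' control probe sets of Actb, a sign of RNA integrity, ERbetaKO-labelled females had 1.34, 1.84 and 1.44 and wild type females 1.17, 1.19 and 1.22 (exact permutation p = 0.1). All 3 ERbetaKO-labelled ratios were higher than all 3 wild type ratios, whereas the Gapdh ratio averaged 0.752 ± 0.0265 in ERbetaKO-labelled females and 0.783 ± 0.0202 in wild type females. The pyruvate carboxylase ratio was 2.42, 2.54 and 2.07 in ERbetaKO-labelled females and 2.36, 1.94 and 3.64 in wild type females (exact permutation p = 0.9). The shift was thus seen in the Actb control alone. Counts from a fit with the Actb ratio as a covariate are given beside the results.

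**Figure D1:**
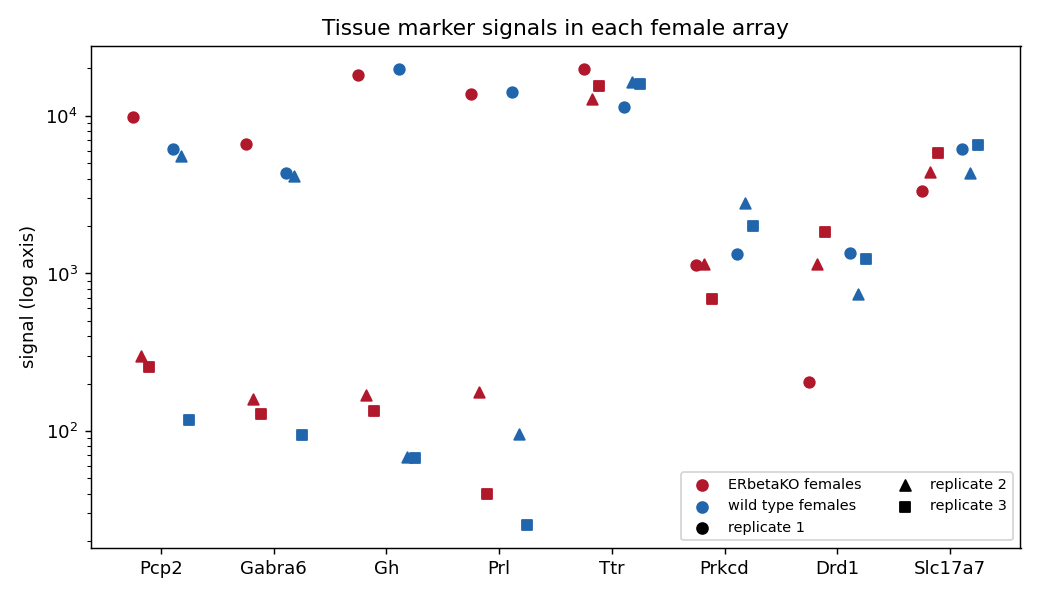
Signal of region markers on each array (log axis, arbitrary intensity units), with ERbetaKO-labelled females left of wild type females. Pcp2 was above 500 on 1 ERbetaKO-labelled and 2 wild type arrays, and Gh was high on array 1 of each group.

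Between ERbetaKO-labelled and wild type females, 36 of 13072 genes passed the test, which is 0.275% of the genes tested. Of these, 7 rose (0.0535%) and 29 fell (0.222%). The 3 ERbetaKO-labelled values lay wholly above or wholly below the 3 wild type values for all 36, as they did for 14.0% of all genes tested. Where non-overlap is mentioned for a called gene below, it therefore adds no support to that call. The differences were mostly moderate, with 9 over 2-fold, and the median size over the 36 genes was 0.77 in log2 units. The median difference of all genes was 0.007. At an unadjusted p under 0.05, 1432 genes (11.0%) differed. Leaving out 1 array at a time gave 2 to 35 calls, with the fewest without wild type female 3 (2 calls) and wild type female 1 (3 calls), then 19 without ERbetaKO-labelled female 1 and 20 without ERbetaKO-labelled female 3. Fos and Tmem18 passed in all 6 of these fits, and every other call was lost in at least 1 of them. With the Actb ratio as a covariate, 12 genes were called, 7 of them among the 36, and with only the arrays of high Pcp2, 17 genes were called, 5 of them among the 36. The 7 were Fos, Tmem18, Fgd6, Zfp385a, Lrrc4b, Tmcc2 and Fndc4, and the 5 were Tmem18, Gabra2, Mt3, Zfp385a and Lrrc4b. All 36 kept their sign in these 2 fits. In the fit of high-Pcp2 arrays no other outcome was possible, since the values of the groups lay wholly apart.

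**Figure D2:**
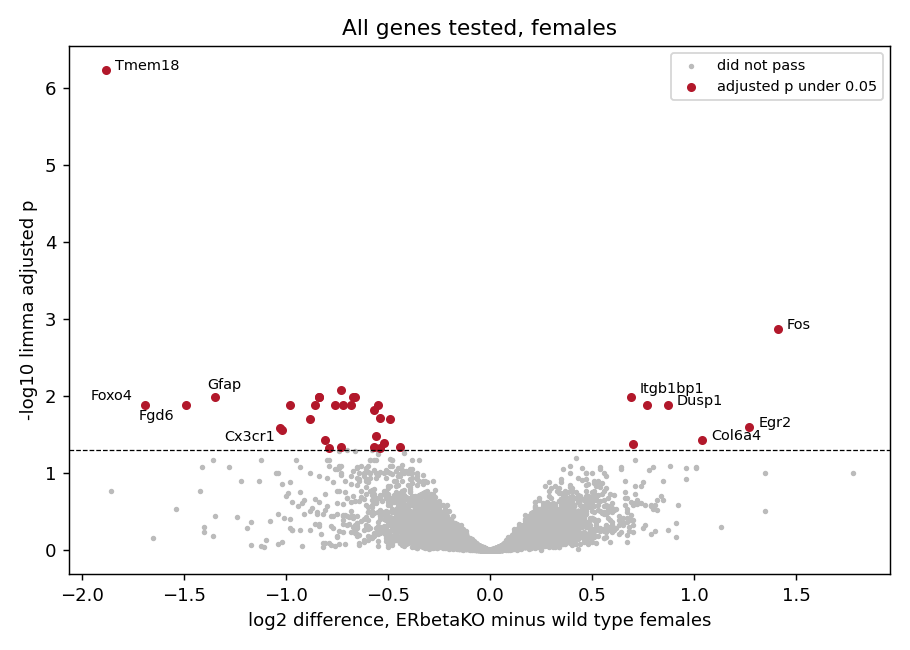
Log2 difference (ERbetaKO-labelled minus wild type females, horizontal) against minus log10 of the adjusted limma p (vertical) for the 13072 genes tested. The 7 genes that rose and 29 that fell are coloured, and Tmem18 and Fos stand farthest from the rest.

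The largest rise among called genes was in Fos, which encodes a subunit of the transcription factor AP-1 and marks recently active cells. Fos was at 2591, 2081 and 2212 in ERbetaKO-labelled females and at 888, 872 and 713 in wild type females. The groups lay far apart, and the difference was 1.41 ± 0.17 (SE) on the log2 scale, or 2.66-fold (adjusted p = 0.00134). Egr2, a zinc finger transcription factor induced by activity, was at 436, 460 and 537 in ERbetaKO-labelled females and at 136, 167 and 182 in wild type females. It rose by 1.27 ± 0.23 (adjusted p = 0.0249), and a second Egr2 probe set, 1427682_a_at, averaged 192 ± 58.5 in ERbetaKO-labelled females and 24.7 ± 11.1 in wild type females. Leaving out any 1 array lost the call of Egr2, with an adjusted p of up to 0.137 and a difference of 1.18 to 1.33. Dusp1, a phosphatase that switches off MAP kinases, was at 1934, 1549 and 1875 in ERbetaKO-labelled females and at 987, 995 and 850 in wild type females. Dusp1 thus rose by 0.87 ± 0.15 (adjusted p = 0.0132) with no overlap, and passed in 2 of the 6 fits without an array.

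The promoters of these 3 genes are shown because they rose together and belong to the same early response. Each run is the RefSeq window of GRCm38.p6 from 250 bases before to 50 after the start, written 5' to 3' on the gene's strand. Fos lies at chr12:85473640-85473939 (plus strand), Egr2 at chr10:67537619-67537918 (plus strand, 1 of 5 windows listed for the gene) and Dusp1 at chr17:26508423-26508722 (minus strand). The Egr2 window was picked for holding the most matches to the motifs marked below. Capitals mark the cAMP response element core TGACGT on either strand, the full palindrome TGACGTCA, which holds 2 overlapping matches of the core, and in Egr2 also the serum response factor motif known as the CArG box.
Fos: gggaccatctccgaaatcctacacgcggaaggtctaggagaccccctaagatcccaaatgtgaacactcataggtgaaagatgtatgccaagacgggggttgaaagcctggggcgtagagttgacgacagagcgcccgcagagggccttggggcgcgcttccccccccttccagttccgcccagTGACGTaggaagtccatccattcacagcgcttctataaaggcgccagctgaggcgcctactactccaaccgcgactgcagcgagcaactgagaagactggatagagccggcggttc
Egr2: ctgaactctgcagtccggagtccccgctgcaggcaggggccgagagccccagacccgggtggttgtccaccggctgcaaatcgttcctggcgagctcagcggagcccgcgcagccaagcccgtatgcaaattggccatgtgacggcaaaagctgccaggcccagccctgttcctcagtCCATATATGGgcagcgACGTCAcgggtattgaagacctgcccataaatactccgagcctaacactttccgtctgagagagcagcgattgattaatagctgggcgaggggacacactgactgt
Dusp1: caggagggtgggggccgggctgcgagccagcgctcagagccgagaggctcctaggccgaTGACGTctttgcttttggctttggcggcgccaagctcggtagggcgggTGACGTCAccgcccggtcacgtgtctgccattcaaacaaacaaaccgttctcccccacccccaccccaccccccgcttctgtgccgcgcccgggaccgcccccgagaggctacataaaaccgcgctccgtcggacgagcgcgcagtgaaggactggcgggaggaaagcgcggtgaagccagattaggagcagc
The core was found in 3 of the 7 genes that rose, namely Fos, Egr2 and Dusp1, and in 2 of the 23 fallen genes with a promoter in the table (Ring1 and Chpf), against 8.37% of 27025 genes. The palindrome TGACGTCA was in Dusp1 and Chpf and in 2.03% of genes, and the CArG box was in Egr2 and Col6a4 and in 1.81% of genes. No promoter of the 30 matched genes held the full estrogen response element (GGTCA, any 3 bases, TGACC), which 0.074% of genes held, or the AP-1 motif TGANTCA, which 8.97% held. The hexamer AGGTCA, the core of a nuclear receptor site, was in Gfap, Rnf208 and Tmcc2, against 18.1% of genes. All motifs were sought on both strands, AGGTCA can overlap the longer estrogen response element, and a match describes letters in these windows only. A gene was counted if any of its windows held the motif, so genes with several windows, such as Egr2, had more chances. Counted by window, the core was in 7.51% of 32851.

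The immediate early list held 21 tested genes. Of these, 3 rose, 0 fell and 18 did not pass the test, and the list's median difference was 0.52 on the log2 scale beside 0.007 for all genes. The difference was above 0 for 18 members, and 10 had ERbetaKO-labelled values wholly above the wild type values, as did 6.82% of all genes. Arc, whose product regulates glutamate receptors at synapses, was at 1271, 2388 and 3471 in ERbetaKO-labelled females and at 652, 528 and 611 in wild type females. Its difference of 1.78 ± 0.44 was larger than that of Fos but more variable, and its adjusted p was 0.1. Npas4, a factor of activity-dependent inhibition, differed by 0.92 (adjusted p = 0.262) and Junb, a partner of Fos, by 0.74 (adjusted p = 0.245). Jund, another AP-1 subunit, ran the other way at -0.55 (adjusted p = 0.0521), with 2512, 2008 and 2139 in ERbetaKO-labelled females and 3616, 2819 and 3410 in wild type females. Among 27 later activity-dependent effectors, 0 passed and the median was 0.09. The 3 rises became 1 with the Actb ratio as a covariate and 0 with only the arrays of high Pcp2, where the median was 0.27. With the cerebellar score as a covariate 4 rose and 1 fell, and with quantile scaling 3 rose and 1 fell. In ERalphaKO-labelled females against the same wild type arrays, 2 members rose and the list's median was 0.50.

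**Figure D3:**
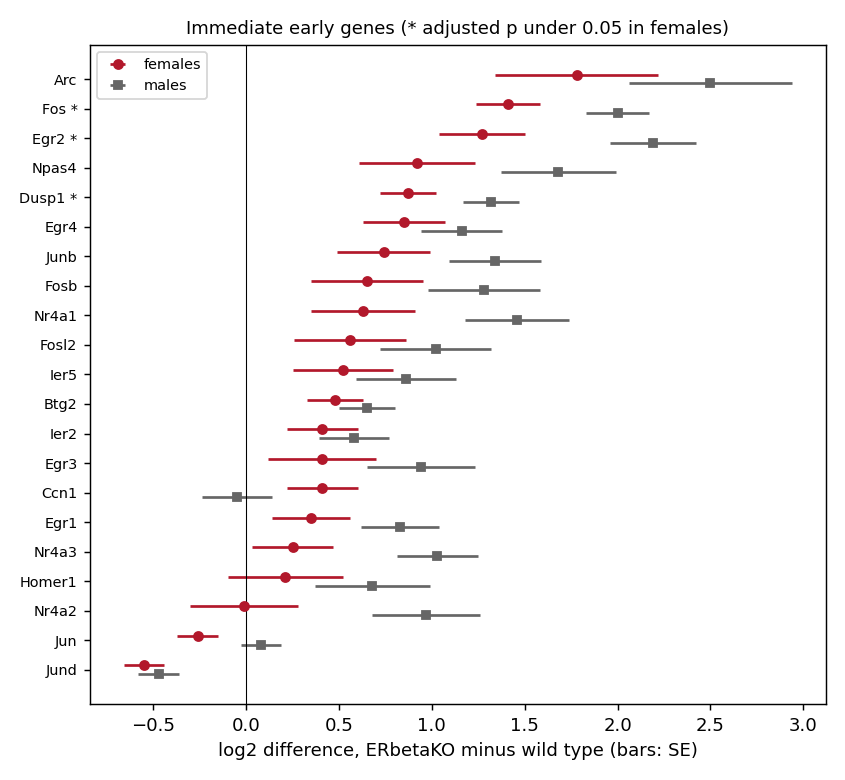
Log2 difference (ERbetaKO-labelled minus wild type) with its standard error for 21 immediate early genes, in females (red circles) and males (grey squares). Asterisks mark the 3 genes called in females, Fos, Egr2 and Dusp1, and 18 of the 21 female differences lie above 0.

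Of the other 4 genes that rose, Ddit4 encodes an inhibitor of the growth kinase complex mTORC1 that is induced by stress and glucocorticoids. Ddit4 was at 2698, 2174 and 2326 in ERbetaKO-labelled females and at 1269, 1683 and 1402 in wild type females, a rise of 0.70 ± 0.14 (adjusted p = 0.0419). It was the 1 of 16 glucocorticoid-responsive genes to pass, and that list's median was 0.16. Itgb1bp1, which binds the tail of integrin beta 1, was at 945, 816 and 934 in ERbetaKO-labelled females and at 510, 564 and 528 in wild type females, a rise of 0.69 ± 0.10 (adjusted p = 0.0101). Col6a4, a collagen VI chain of the extracellular matrix, was at 426, 387 and 367 in ERbetaKO-labelled females and at 186, 127 and 168 in wild type females. It rose by 1.04 ± 0.20 (adjusted p = 0.037), a call lost in every fit without 1 array. Tmem245, a membrane protein, was at 593, 650 and 677 in ERbetaKO-labelled females and at 375, 369 and 305 in wild type females, and rose by 0.77 ± 0.12 (adjusted p = 0.0132). In none of these genes did the groups overlap, as in all 36 called genes.

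Tmem18, a protein of the nuclear membrane whose locus is linked to human body weight, had the smallest p. It was at 233, 155 and 178 in ERbetaKO-labelled females and at 806, 862 and 898 in wild type females. Tmem18 fell by 1.88 ± 0.12 on the log2 scale, 3.67-fold (adjusted p = 5.80e-07), and passed under every alternative run. Foxo4, a forkhead factor restrained by insulin signalling, was at 69.4, 75.3 and 27.3 in ERbetaKO-labelled females and at 365, 273 and 326 in wild type females, a difference of -1.69 ± 0.27 (adjusted p = 0.0132). Fgd6, an exchange factor for the small GTPase Cdc42, was at 24.8, 112 and 30.2 in ERbetaKO-labelled females and at 235, 222 and 318 in wild type females, a difference of -1.49 ± 0.25 (adjusted p = 0.0132). The ERbetaKO-labelled mean of both genes was under the added 63.63, so their size depends on that choice, and it became -1.03 for Foxo4 and -0.86 for Fgd6 with the larger pseudocount of 195.9. A second probe set of each gene gave 0.26 ± 0.26 for Foxo4 and -0.05 ± 0.16 for Fgd6, neither beyond its error.

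Among genes of glia, Gfap, the intermediate filament of astrocytes, was at 1129, 1068 and 1066 in ERbetaKO-labelled females and at 2652, 2923 and 3018 in wild type females. Gfap fell by 1.35 ± 0.20 on the log2 scale (adjusted p = 0.0101), and the wild type values were all more than 2-fold above. Of its other 2 probe sets, 1426509_s_at gave -1.41 ± 0.24 and 1440142_s_at -0.52 ± 0.30. Of 17 astrocyte genes tested, Gfap was the 1 that fell and 0 rose. The list's median was -0.18, and 15 members had a difference below 0, as did 48.4% of all genes tested. The median was 0.01 with only the arrays of high Pcp2, and Gfap did not pass there (adjusted p = 0.0509) or with the Actb ratio (adjusted p = 0.0704), at differences of -1.26 and -1.56. Cx3cr1, the fractalkine receptor of microglia, was at 311, 301 and 234 in ERbetaKO-labelled females and at 572, 584 and 759 in wild type females. It fell by 1.02 ± 0.19 (adjusted p = 0.0278), a call lost in every fit without 1 array, and was the 1 of 14 microglial genes to pass, with a list median of -0.09. C1qa, a complement component of microglia, differed by -0.45 (adjusted p = 0.325). In myelin, oligodendrocyte precursor and endothelial lists, 0 of 15, 0 of 12 and 0 of 18 passed, with medians of -0.11, -0.19 and -0.03. Cldn5, a tight junction protein of brain vessels, was at 1226, 1209 and 1030 in ERbetaKO-labelled females and at 1448, 1757 and 1737 in wild type females, without passing (adjusted p = 0.0646).

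Among neuronal and signalling genes, Gabra2, the alpha 2 subunit of the GABA-A receptor, was at 534, 855 and 775 in ERbetaKO-labelled females and at 1429, 1282 and 1897 in wild type females. It fell by 1.03 ± 0.19 (adjusted p = 0.026), the 1 of 11 GABA receptor genes to pass, and probe set 1421738_at gave -1.45 ± 0.18. Gabra2 is also the 1 member called in a list of 10 genes known to vary between substrains or strains. Mt3, a zinc-binding metallothionein of brain, was at 3595, 5046 and 6010 in ERbetaKO-labelled females and at 9504, 8845 and 10080 in wild type females, a fall of 0.98 ± 0.16 (adjusted p = 0.0132). Irak1, a kinase of interleukin 1 and Toll-like receptor signalling, was at 279, 367 and 380 in ERbetaKO-labelled females and at 725, 668 and 609 in wild type females, and differed by -0.86 (adjusted p = 0.0132), whereas its other 3 probe sets gave 0.37, 0.15 and -0.12. The groups did not overlap in any of these 3 genes.

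The rest of the 12 largest falls were of moderate size. Mboat2, an acyltransferase of phospholipid remodelling, was at 706, 774 and 773 in ERbetaKO-labelled females and at 1240, 1365 and 1613 in wild type females, with a difference of -0.84 ± 0.13 (adjusted p = 0.0101). Zfp385a, a zinc finger protein, was at 716, 1226 and 775 in ERbetaKO-labelled females and at 1629, 1826 and 1581 in wild type females, a difference of -0.88 (adjusted p = 0.0195). These values did not overlap either. Rnf208, a RING finger protein, was at 1299, 1601 and 1616 in ERbetaKO-labelled females and at 2821, 2823 and 2567 in wild type females, a difference of -0.84 (adjusted p = 0.0101). Podxl2, a sialomucin related to CD34, was at 1097, 1177 and 1134 in ERbetaKO-labelled females and at 2231, 2133 and 1775 in wild type females, a difference of -0.81 (adjusted p = 0.037), a call lost in every fit without 1 array.

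A further 17 genes fell by 0.44 to 0.79. They lie outside the rule for named genes. All of them are described, here or in the next paragraph, a choice made after their values were seen. Tmcc2, a transmembrane protein abundant in brain, fell by 0.73 ± 0.10 (adjusted p = 0.0083). Slc7a5, the large neutral amino acid transporter of the blood-brain barrier, was at 720, 792 and 675 in ERbetaKO-labelled females and at 1308, 1130 and 1162 in wild type females (-0.67, adjusted p = 0.0101). Spock2, an extracellular matrix proteoglycan, fell by 0.72, and Ttyh1, a membrane protein of the tweety family, fell by 0.55. Chpf, which builds chondroitin chains, had the smallest difference among the called genes, at 544, 565 and 553 in ERbetaKO-labelled females against 778, 781 and 762 in wild type females. Maz, a zinc finger factor, averaged 588 ± 45.2 in ERbetaKO-labelled females and 985 ± 170 in wild type females (-0.68, adjusted p = 0.0132). Ring1, a Polycomb ubiquitin ligase, averaged 391 ± 37.8 in ERbetaKO-labelled females and 656 ± 66.1 in wild type females (-0.66, adjusted p = 0.0101). Usf2, an E-box binding factor, differed by -0.49, Tle5, a Groucho family member, by -0.56, and Zfp358, a zinc finger protein, by -0.52. At the cell surface, Adam15, a metalloprotease, averaged 1416 ± 107 in ERbetaKO-labelled females and 2445 ± 102 in wild type females (-0.76, adjusted p = 0.0132), and Lrrc4b, a synaptic adhesion protein, differed by -0.73. Cygb, the oxygen-binding cytoglobin, differed by -0.79, Gyg, the primer of glycogen synthesis, by -0.57, Fndc4 by -0.57 and Ppp1r14b, a phosphatase inhibitor, by -0.54.

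Mtdh fell by 0.54, while none of its other 6 probe sets ran the same way. Over the 19 called genes with other probe sets, 23 of 35 had the same sign and 12 of these had an unadjusted p under 0.05, and none had the opposite sign at that level.

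**Figure D4:**
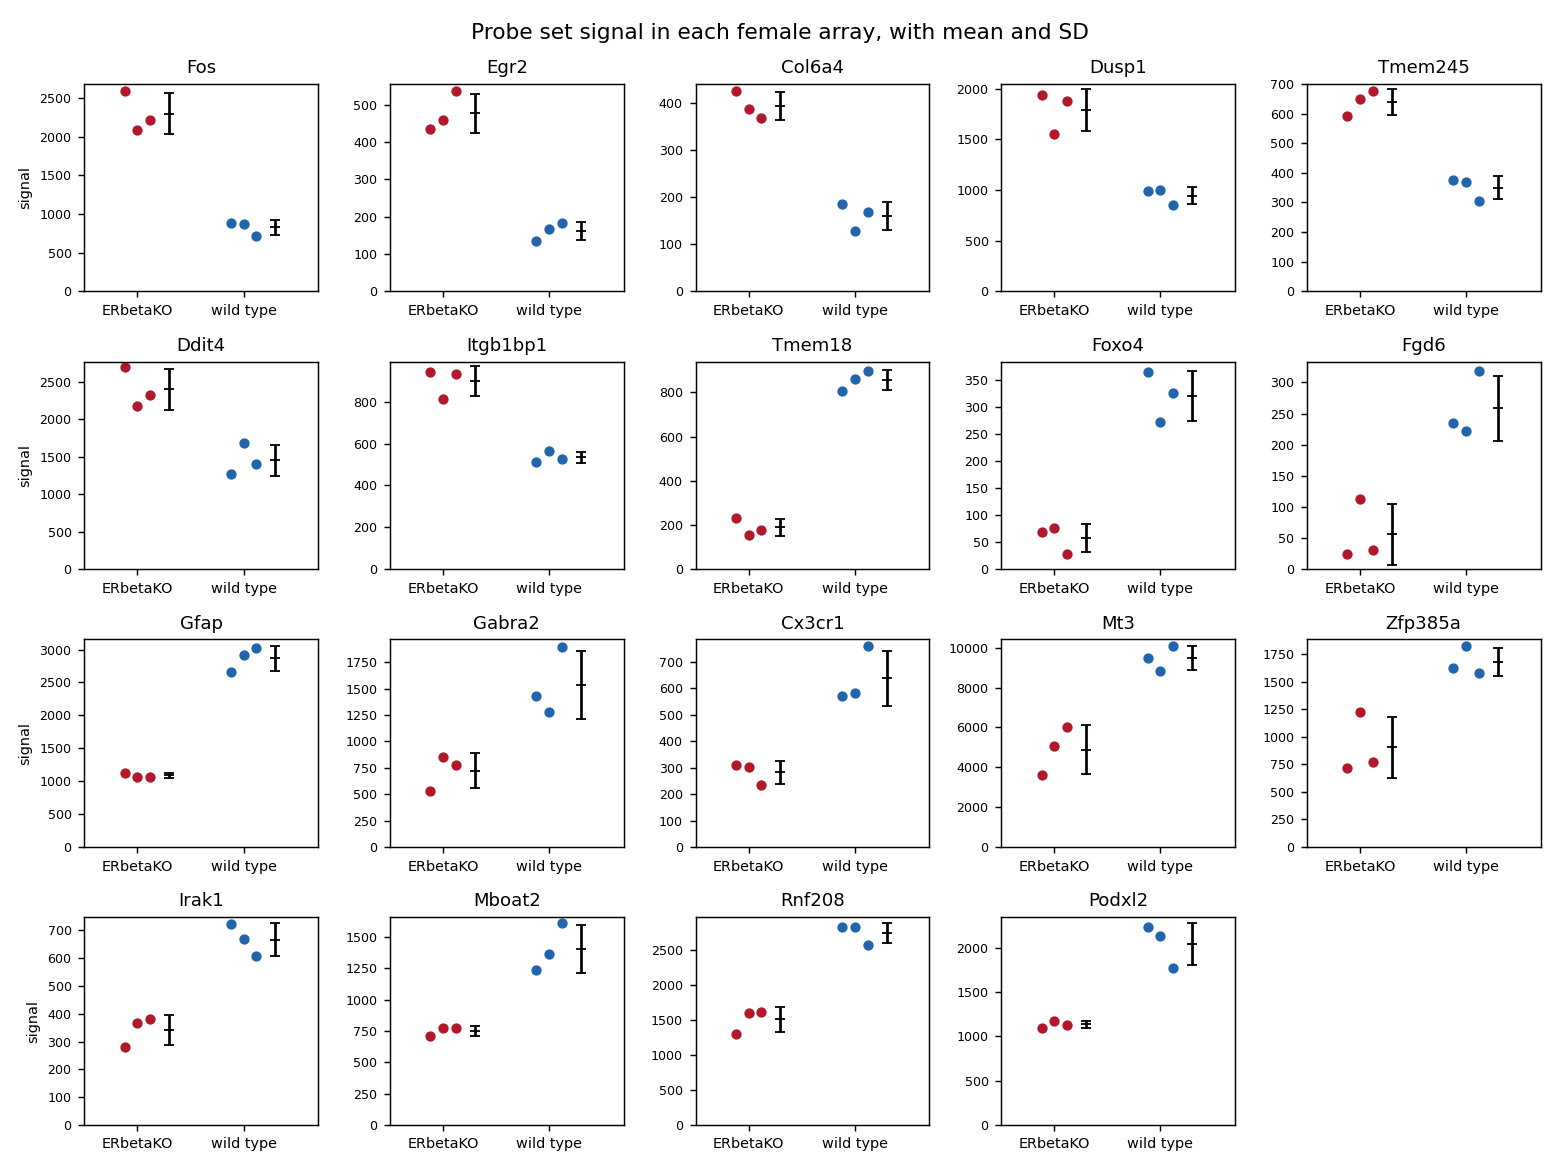
Signal on each array for the 7 genes that rose and the 12 largest falls, ERbetaKO-labelled females (red) left of wild type females (blue), with bars at mean ± SD (n = 3 each). In each panel the points of the groups do not overlap, as holds for all 36 called genes.

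Of 5 tested estrogen receptor and related receptor genes, 0 passed, with a median of 0.18, and of 15 steroid receptors 0 passed, with a median of -0.07. With the Actb ratio as a covariate, and likewise with only the arrays of high Pcp2, 1 steroid receptor fell. Esrrb, an estrogen-related orphan receptor, differed by -0.43 (adjusted p = 0.378). In 14 coregulators and 19 estrogen-responsive genes, 0 passed, with medians of 0.00 and -0.03. Bcl2, a survival gene that estradiol induces in several cell types, was at 390, 482 and 441 in ERbetaKO-labelled females and at 501, 704 and 470 in wild type females, and differed by -0.30 (adjusted p = 0.411). In 10 tested genes of neurosteroid synthesis 0 passed (median -0.10), and 1 rose in the fit that adds the cerebellar score. The neurosteroid median was 0.10 with the Actb ratio and 0.21 with only the arrays of high Pcp2. Srd5a3, a steroid reductase family member, differed by 0.96 ± 0.22 (adjusted p = 0.0853). These tests cannot show that the genes were alike in both groups. Of 38 gene lists, 32 had no called member, and in the 29 of them with 9 or more tested genes the median lay between -0.46 and 0.10. Those lists included 37 oxidative phosphorylation, 28 proteasome, 35 splicing, 20 clock and 20 glutamate receptor genes. The lowest median among lists of non-cerebellar regions was -0.46, in 13 thalamic genes. All of these had a difference below 0, as did all 10 Purkinje genes and 48.4% of all genes tested. Prkcd, a thalamic kinase, was at 1128, 1147 and 686 in ERbetaKO-labelled females and at 1336, 2803 and 2002 in wild type females (adjusted p = 0.398). Of the 36 called genes, 7 belonged to a list and 29 belonged to none. The lists held 559 of the 13072 genes tested, and they were chosen with earlier results of these data known.

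Males gave a separate set of 6 arrays, whose tissue content also differed. Gh was at 92.5, 111 and 109 in ERbetaKO-labelled males and at 9308, 1110 and 5917 in wild type males, with no overlap, and the pituitary list's median was -0.72. Ttr, a choroid plexus gene, was at 12052, 17295 and 19405 in ERbetaKO-labelled males and at 15470, 19036 and 837 in wild type males, so wild type male 3 stood apart. Between ERbetaKO-labelled and wild type males 231 genes (1.77%) were called, and 35 of the 36 female calls had the same sign there, 6 of 7 rises and 29 of 29 falls. Over all genes tested, 69.5% had the same sign in both sexes. The calls in males were 77 rises (0.589%) and 154 falls (1.18%). Of the 36, 23 were also called in males, which is 63.9% of the female calls and 9.96% of the male calls. With the pituitary score as a covariate 35 kept the female sign and 16 were called, and without wild type male 3 it was 34 and 10. Leaving out other male arrays gave 8 calls at the fewest, without ERbetaKO-labelled male 1, then 11 without ERbetaKO-labelled male 2, 11 without wild type male 2 and 14 without wild type male 1. Fos was at 2583, 2911 and 3226 in ERbetaKO-labelled males and at 816, 466 and 800 in wild type males, a difference of 2.00 (adjusted p = 9.21e-06). Of the immediate early list, 11 rose and 1 fell in males, with a median of 1.02. Tmem18 was at 182, 213 and 260 in ERbetaKO-labelled males and at 924, 892 and 1003 in wild type males (-1.84, adjusted p = 7.88e-07). Gfap averaged 1299 ± 324 in ERbetaKO-labelled males and 2874 ± 526 in wild type males (-1.12, adjusted p = 0.0157). The exception in sign was Col6a4, at 306, 162 and 126 in ERbetaKO-labelled males and at 236, 285 and 214 in wild type males, where the groups overlapped (-0.29, adjusted p = 0.423). Cx3cr1 averaged 617 ± 204 in ERbetaKO-labelled males and 614 ± 95.3 in wild type males, a difference of -0.03.

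**Figure D5:**
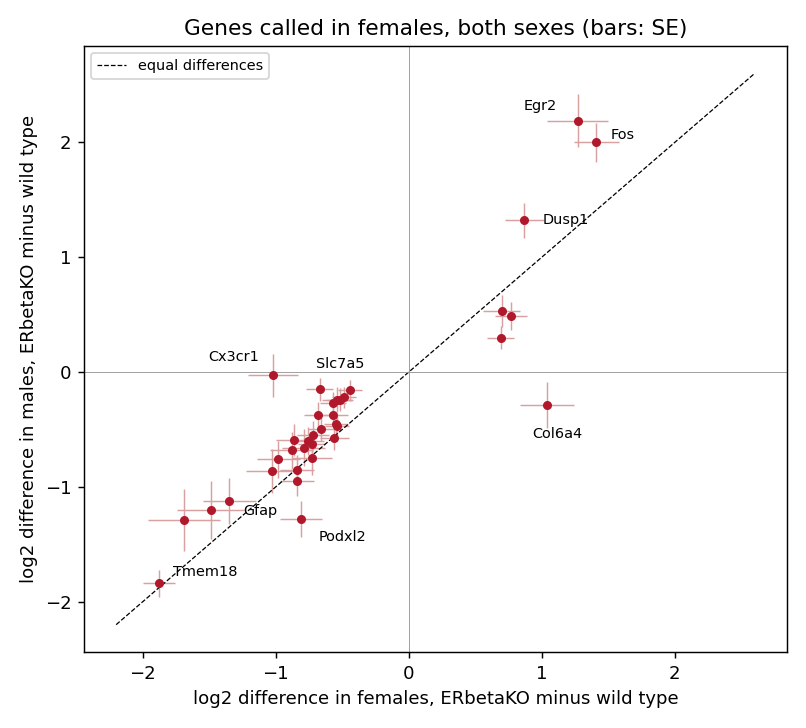
Log2 difference between ERbetaKO-labelled and wild type arrays in females (horizontal) and in males (vertical) for the 36 genes called in females, with standard errors. Of these, 35 have the same sign in both sexes, and Col6a4 does not.

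The difference between the female and male differences was tested directly. No gene passed (limma), and 442 genes (3.38%) had an unadjusted p under 0.05, among them 11 of the 36. The smallest p was that of Col6a4, where the female difference exceeded the male one by 1.33 ± 0.28 (limma unadjusted p = 0.000222, adjusted p = 1). For Snx25, a sorting nexin, the difference of differences was -0.69, and for 4930442L01Rik it was -0.76. Cx3cr1 had -0.99 (unadjusted p = 0.0018), Fos -0.59 (unadjusted p = 0.0216) and Slc7a5 -0.52 (unadjusted p = 0.00261), none of them past the threshold.

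Directly against ERalphaKO-labelled females, 49 genes (0.375%) were called, 17 higher (0.13%) and 32 lower (0.245%) in ERbetaKO-labelled females. Of the 36 genes, 12 were called here with the same sign, 2 higher (Itgb1bp1 and Col6a4) and 10 lower, though both comparisons share the ERbetaKO-labelled arrays. Tmem18 averaged 189 ± 40.4 in ERbetaKO-labelled females and 910 ± 87.2 in ERalphaKO-labelled females (-1.96, adjusted p = 3.03e-07). Gfap averaged 1088 ± 35.6 in ERbetaKO-labelled females and 2539 ± 483 in ERalphaKO-labelled females (-1.16, adjusted p = 0.0198). For Fos the values were 2295 ± 265 in ERbetaKO-labelled females and 2030 ± 202 in ERalphaKO-labelled females, a difference of 0.17 that did not exceed its error (adjusted p = 0.655). Dusp1 likewise differed by 0.03 (adjusted p = 0.944). Among the genes with the smallest p, Erdr1 averaged 450 ± 152 in ERbetaKO-labelled females and 5842 ± 2320 in ERalphaKO-labelled females (-3.48, adjusted p = 1.40e-06). Rspry1, at 798 ± 86.2 in ERbetaKO-labelled females and 1323 ± 53.5 in ERalphaKO-labelled females, differed by -0.69 (adjusted p = 0.00321), and Des, the muscle intermediate filament, by 1.08 (adjusted p = 0.0109).

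Esr2 lies on chromosome 12, as do 4 of the 36 called genes (11.1%), against 470 of 13042 tested genes (3.6%) with a chromosome. They were Tmem18, Fos, Itgb1bp1 and Mboat2, which lie -598, 213, -738 and -669 annotated genes from Esr2 in gene order. Within 25 annotated genes on each side of Esr2, 20 genes were tested and 0 passed, with a median difference of 0.09. The smallest p among these neighbours was that of Fntb, a farnesyltransferase subunit, at -0.50 ± 0.17 (adjusted p = 0.262), and Hif1a, the hypoxia factor, differed by 0.36 (adjusted p = 0.571).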

How the data were processed

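RNA of 18 whole-brain samples, 3 for each genotype and sex, had been hybridised to Affymetrix mouse 430 2.0 arrays. The authors deposited 1 linear intensity for each of 45101 probe sets, and the submitters' processing notes name MAS5 without a version. Each array had been scaled to one target, since its 2% trimmed mean was 500. With no detection calls or counts, precision is limited by the number of arrays. After 64 control probe sets were removed, 45037 remained, of which the platform annotation gave 34945 a single symbol, 932 several and 9160 none. These symbols were brought to RefSeq (GRCm38.p6), 34741 by entrez identifier and 143 by symbol, with 61 left as they were. A gene was represented by its brightest probe set on average (18193 genes). The scale was log2(signal + 63.63), where 63.63 is the 25th percentile of signals, so changes of dim genes are understated. Testing was restricted to 13072 genes whose mean log2 level reached 7.58, the 40th percentile.

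All arrays entered 1 limma 3.58.1 model (R 4.3.3) of 6 group means with a variance trend on intensity, leaving 12 residual degrees of freedom, and the Benjamini-Hochberg adjustment ran over all genes tested. Adjusted p-values are from this model, or from its named alternative where a sentence gives one. Control ratios and receptor probe sets were also compared by two-sided exact permutation tests. The model was tested on simulated data with independent noise in each gene, so without the shared tissue differences seen between these arrays. Of 50 genes each changed 1.3-fold, 1.5-fold and 2-fold, it called 10, 25 and 43, with 6 false calls. Plots used matplotlib 3.10.9 (Python 3.11.15). The members, lists and tests were chosen with earlier results of these data known.

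The text names Esr1 and Esr2, the 12 largest rises and falls among called genes whose values lay wholly apart, up to 6 members of each list by smallest p, up to 6 called genes by smallest p in the sex difference and against ERalphaKO females (3 where none passed), up to 4 neighbours of Esr2, and marker genes. The alternatives changed the scaling (quantile, median), the pseudocount (1 or 195.9), the filter (none, or the 60th percentile), the probe sets (all), the variance model (without trend, or with array weights), the arrays fitted (the compared groups alone, or 1 array fewer) and the covariates (replicate block, cerebellar score, Actb ratio). After the data were seen, a pituitary score, a fit of arrays with Pcp2 over 500, and fits without each male or ERalphaKO array were added, as were the alternatives for calls shared with males.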

Additional observations from a re-analysis of the deposited data

How the results depend on the processing

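The 36 genes called between ERbetaKO-labelled and wild type females kept their sign under every alternative in which they were tested. Their values lay wholly apart between the groups. Fits with fewer arrays or another pseudocount, filter or variance model therefore could not change a sign. The count of calls was 80 with all probe sets, 159 with the cerebellar score as a covariate, 12 with the Actb ratio as a covariate, 3 with only the groups compared, 17 with only arrays of Pcp2 over 500, and 2 to 35 with 1 array left out. In the Pcp2 fit the lone ERbetaKO-labelled array is assumed to vary like the other groups. For the sex difference, where no gene passed, leaving out 1 array gave 0 to 2 calls. For ERbetaKO-labelled against ERalphaKO-labelled females, with 49 calls, the count was 75 with quantile normalization, 130 with all probe sets, 120 with array weights, 3 with only the groups compared, 113 with the cerebellar score, 21 with the Actb ratio, 20 with only arrays of Pcp2 over 500 and 10 to 45 with 1 array left out. Esr1 probe set 1435663_at turned to 0.19 with the Actb ratio and 0.22 with arrays of Pcp2 over 500, and lay between -0.11 and 0.07 with 1 array left out. Probe set 1460591_at turned to 0.01 with arrays of Pcp2 over 500 and lay between -0.31 and 0.11 with 1 array left out, and 1421244_at between 0.14 and 0.47. The cause of these changes was not tested. The replicate block gave 34 calls against wild type, 28 of them among the 36, 20 against ERalphaKO-labelled females and 0 for the sex difference. Deviations of same-numbered arrays correlated at 0.373, 0.035 and 0.432. For ERbetaKO-labelled females 1 and 3 this was the highest correlation with any wild type female, and for female 2 the highest was 0.286. The main model holds no pairing because the labels give none, and these correlations do not exclude one. Of the 36 genes, the number also called in males (23) was 5 with only arrays of Pcp2 over 500 and 8 to 16 with 1 male array left out. Over the genes named with a difference, other than Esr1 and Esr2, 1107 values stayed on their side of the threshold, 283 no longer passed and 32 newly passed, and none of the 1422 changed sign. Of the list medians, 719 values moved by less than the spread between arrays and 40, from 25 lists, by more.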
